A study of Homo sapiens with 2 samples.

Results

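The genes described here are 8 that decide whether a cell leaves the G1 phase: the kinase gene CDK6, the D-type cyclin genes CCND1, CCND2 and CCND3, and the inhibitor genes CDKN2A, CDKN2B, CDKN1A and CDKN1B. They were chosen by name. A peak was counted for a gene if it overlapped, by at least 1 bp, the gene's hg19 span or the 20 kb on either side of it. The spans were given to the nearest 1 kb, and CDKN2A and CDKN2B, which are neighbours, shared one. The 8 genes thus made 7 windows, which held 51 of the 52203 peaks in the list. The peaks mark H3K27ac, the acetylated form of lysine 27 in histone H3, which is found at active promoters and enhancers, in the T-cell acute lymphoblastic leukaemia (T-ALL) line LOUCY. The series held 1 H3K27ac immunoprecipitation library, with 54357332 tags kept by the peak caller, and 1 library of input DNA, with 71932640 tags kept. Both came from untreated cells of this single established line. With 1 library each there was no replicate error for any value, and no test was made. The labelled cell type could not be checked against T-cell markers, because no hg19 gene annotation was used here.

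D-type cyclins bind CDK4 or CDK6, and the active complex phosphorylates the retinoblastoma protein, which releases E2F factors and starts S phase. The products of CDKN2A (p16) and CDKN2B (p15) bind CDK4 and CDK6 and keep cyclin D off. The products of CDKN1A (p21) and CDKN1B (p27) bind cyclin-CDK complexes more widely and block CDK2 in particular. CDKN2A has an outer start site for the ARF transcript, whose protein stabilises p53, and an inner start site for p16. In blood cells CDK6, CCND2 and CCND3 are the usual G1 partners, while CCND1 is mainly used in other tissues, and deletion of CDKN2A and CDKN2B is a frequent lesion of T-ALL. The histone mark measures chromatin state, not the amount of RNA or protein.

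The following promoter sequences are those of start sites at which the peaks described further on differ: a fully covered small gene (CDKN1B), a broad peak over a start (CDK6), a strong peak at a distance close to that of an inner start (CCND3), and the 3 start sites of the CDKN2A and CDKN2B locus, 1 of which lies at a distance where a peak was found. They come from RefSeq in build GRCh38.p14, each running 5′ to 3′ from 250 bases before to 50 bases after the start site. Capitals mark CG dinucleotides. The promoter table held 10 promoters of 6 of the 8 genes. CCND1 and CCND2 were not among them.
CDKN1B, chr12:12717118-12717417, plus strand: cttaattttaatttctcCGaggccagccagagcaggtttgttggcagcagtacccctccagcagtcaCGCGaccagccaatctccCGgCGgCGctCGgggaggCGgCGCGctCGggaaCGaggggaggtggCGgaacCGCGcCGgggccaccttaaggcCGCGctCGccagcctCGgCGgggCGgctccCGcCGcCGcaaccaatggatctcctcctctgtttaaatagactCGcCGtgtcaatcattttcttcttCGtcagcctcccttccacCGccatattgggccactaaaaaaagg
CDK6, outer start site, chr7:92836524-92836823, minus strand: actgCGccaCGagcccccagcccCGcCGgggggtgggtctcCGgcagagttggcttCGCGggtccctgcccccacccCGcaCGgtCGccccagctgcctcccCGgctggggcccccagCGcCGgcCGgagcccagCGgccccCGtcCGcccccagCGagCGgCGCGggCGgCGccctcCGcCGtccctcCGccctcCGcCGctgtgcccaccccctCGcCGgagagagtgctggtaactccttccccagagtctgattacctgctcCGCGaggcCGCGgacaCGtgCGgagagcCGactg
CCND3, inner start site, chr6:41941759-41942058, minus strand: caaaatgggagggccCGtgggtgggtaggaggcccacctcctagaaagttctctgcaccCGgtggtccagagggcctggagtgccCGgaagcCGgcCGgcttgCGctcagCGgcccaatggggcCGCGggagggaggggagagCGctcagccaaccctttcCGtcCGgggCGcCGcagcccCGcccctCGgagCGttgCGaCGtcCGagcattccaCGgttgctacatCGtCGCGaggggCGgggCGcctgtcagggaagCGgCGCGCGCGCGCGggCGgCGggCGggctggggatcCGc
CDKN2A, outer start site, chr9:21995275-21995574, minus strand: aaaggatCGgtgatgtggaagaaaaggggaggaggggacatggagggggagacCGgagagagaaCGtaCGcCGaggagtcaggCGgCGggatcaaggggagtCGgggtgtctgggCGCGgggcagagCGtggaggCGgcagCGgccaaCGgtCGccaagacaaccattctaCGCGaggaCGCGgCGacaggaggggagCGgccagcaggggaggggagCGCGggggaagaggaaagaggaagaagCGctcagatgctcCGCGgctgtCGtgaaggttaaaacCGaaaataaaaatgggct
CDKN2A, inner start site, chr9:21974808-21975107, minus strand: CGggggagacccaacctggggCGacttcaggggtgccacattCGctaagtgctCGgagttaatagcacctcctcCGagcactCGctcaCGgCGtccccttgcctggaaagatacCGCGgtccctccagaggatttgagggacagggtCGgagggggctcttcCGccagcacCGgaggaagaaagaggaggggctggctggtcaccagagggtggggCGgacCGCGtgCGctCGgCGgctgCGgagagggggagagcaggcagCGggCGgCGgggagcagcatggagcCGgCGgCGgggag
CDKN2B, chr9:22009256-22009555, minus strand: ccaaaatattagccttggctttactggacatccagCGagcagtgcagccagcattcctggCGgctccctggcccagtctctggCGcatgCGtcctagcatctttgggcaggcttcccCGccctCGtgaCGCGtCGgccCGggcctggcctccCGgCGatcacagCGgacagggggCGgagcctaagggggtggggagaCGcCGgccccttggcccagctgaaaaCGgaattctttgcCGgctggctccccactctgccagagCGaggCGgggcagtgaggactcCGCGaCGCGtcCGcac

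All 6 sequences were rich in CG. They held 29 (CDKN1B), 37 (CDK6), 37 (CCND3), 28 (CDKN2A, outer), 26 (CDKN2A, inner) and 25 (CDKN2B) CG dinucleotides, and between 68.0% and 88.7% of the 35116 promoters in the table held fewer. The inner CDKN2A promoter and that of CDKN2B, at whose distances no peak was found, thus had CG counts close to those of the outer CDKN2A promoter and CDKN1B. Another promoter listed for CCND3, at chr6:41939156-41939455, held 3. Letter motifs were searched on both strands. The E2F motif (TTTCCCGC, TTTCGCGC, TTTGCCGC or TTTGGCGC) was in none of the 10 members' promoters, against 3.31% of all promoters. The ETS motif (CCGGAAGT, 4.14% of all promoters) and the RUNX motif (TGTGGTT or TGCGGTT, 5.87%) were also in none. The SP1 motif (GGGGCGGGG, 15.7%) occurred 2 times in each of the CCND3 promoters at chr6:41941759-41942058 and chr6:42048639-42048938. The E-box (CACGTG, 7.26%) occurred 1 time, in the outer CDK6 promoter. None of these motifs overlapped another. A match or its absence describes the letters in these windows only.

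Every one of the 7 windows held at least 3 peaks. Of adjoining genome windows of the same length, between 32.5% (for CDK6) and 62.6% (for CDKN1B) held no peak. The amount of marked chromatin in the 7 windows fell into separate ranges. CDKN1B, CDK6, CCND3 and CDKN1A were covered by peaks over 40.4% to 61.6% of their windows, and CCND2, the CDKN2A and CDKN2B window and CCND1 over 8.59% to 14.2%. The gene spans alone parted the same way, but with flanks of 50 kb the ranges met, at 24.2% for CDKN2A with CDKN2B and 18.6% for CDKN1A. Together the windows were covered over 37.5% of their 728.007 kb, against 4.90% of the genome. The background for each window was the genome cut into adjoining windows of the same length. These were not placed at genes, so they include stretches without a gene start. Neither the covered share nor the share without a peak was worked out for windows around other genes. Pooled over the windows, 20 of the 51 peaks (39.2%) had a -log10 q of at least 10, against 36.8% of all peaks. The pooled share hides a difference between windows. At CDK6, 4 of 25 peaks reached this value. It was 2 of 3 at CCND1, CCND2, CDKN1A and CDKN2A with CDKN2B, 4 of 9 at CCND3 and 4 of 5 at CDKN1B. The median fold over input of the 51, the authors' ratio of immunoprecipitated to input signal, was 2.57, against 3.08 for all peaks. Weak peaks with a fold below 3 numbered 29 of 51 (56.9%, against 48.2% of all peaks), and 19 of these 29 lay in the CDK6 window. At the upper end, 3 of the 51 peaks were among the 522 strongest of the genome and 4 were among the 522 widest. These 522 are 1% of the list.

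**Figure D1:**
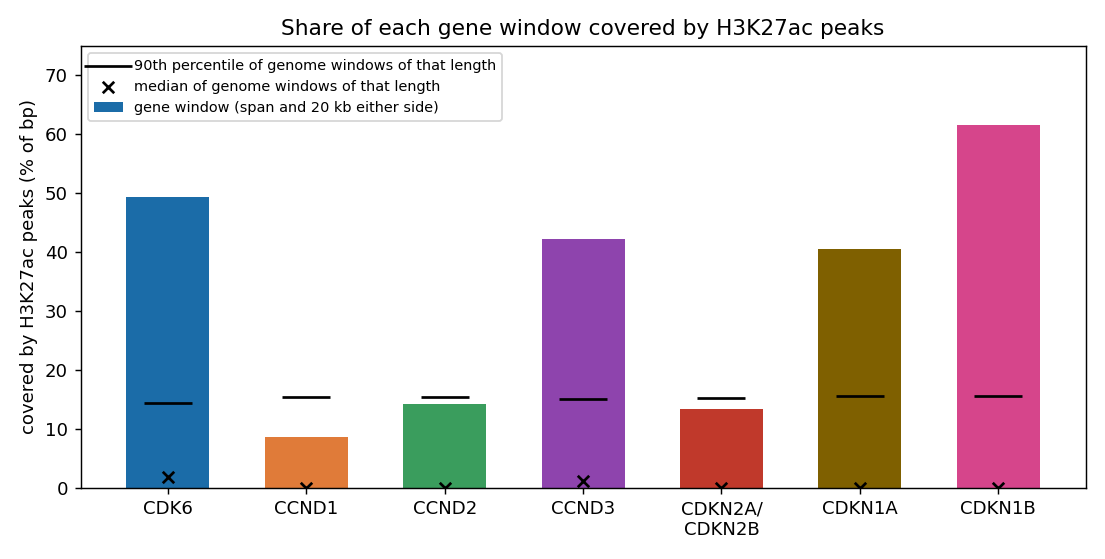
Share of base pairs covered by H3K27ac peaks (vertical axis, %) in each gene window, the gene span with 20 kb on either side. Lines and crosses give the 90th percentile and the median of adjoining genome windows of the same length. The bars of CDK6 (49.3%), CCND3 (42.1%), CDKN1A (40.4%) and CDKN1B (61.6%) stand above the lines, and those of CCND1 (8.59%), CCND2 (14.2%) and CDKN2A with CDKN2B (13.4%) below them.

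CDK6, the kinase, had 3 broad blocks of the mark with weak peaks or none between them. Its window in 7q21.2 (span 92234000 to 92466000 of chromosome 7, minus strand) was the longest of the 7, at 272 kb, and held 25 peaks that covered 49.3% of it, and 0.206% of genome windows of that length were covered as much. The first block lay over the 5′ end, from -6.66 to 14.1 kb relative to it (92451931 to 92472657, 20727 bp wide), at a fold of 14.3, which ranked 255 in the genome. The second lay in the gene body at 68.3 to 90.5 kb (92375503 to 92397747, 22245 bp) with a fold of 8.76. The last, at 175.8 to 218.8 kb near the 3′ end (92247189 to 92290219), spanned 43031 bp at a fold of 10.1 and was the peak ranked 35 by width. These 3 peaks made up 64.0% of the summed peak width in the window. With a -log10 q of at least 10, 4 peaks were left in it, as many as at CCND3 and at CDKN1B. All 3 blocks were among the 522 widest peaks of the genome. Between the first 2 blocks, 40.05 kb of the gene (92397748 to 92437796) held no peak. Of the 22 other peaks, the strongest had a fold of 6.27 and lay beyond the 3′ end, at 92213755 to 92220367, on the side of the neighbouring gene FAM133B. The weakest peak of the window had a fold of 2.07. In GRCh38, RefSeq lists an inner start site 2.61 kb from the outer one, a distance within the reach of the first block.

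The D-type cyclin genes differed among themselves. CCND3 was marked over a large part of its length, while CCND1 and CCND2 each had their strongest peak at the 5′ end and no peak over most of the gene. At CCND3 in 6p21.1 (span 41903000 to 42017000 of chromosome 6, minus strand), 9 peaks covered 42.1% of the window. Of genome windows of that length, 0.949% were covered at least as much. A pair of adjoining broad peaks began at the 5′ end. One ran from -2.72 to 15.0 kb (42001961 to 42019717, 17757 bp) with a fold of 8.02, and the other from 15.9 to 46.1 kb (41970899 to 42001058, 30160 bp, rank 150 by width) with a fold of 8.67. The strongest peak was elsewhere, at the far end of the span. It ran from 106.1 to 115.5 kb (41901515 to 41910855, 9341 bp) at a fold of 15.3, which ranked 151 in the genome. In GRCh38 the inner start sites of CCND3 lie 106.9 and 109.5 kb from its outer one. Distances within the 2 builds are set side by side here, no coordinate was converted, and it was not tested whether the distances are the same in hg19. The stretch between the broad peaks and the strongest one held 4 peaks with folds of 2.34 to 2.57. Past the 3′ end a peak of fold 8.58 (41887145 to 41891589) lay on the side of the neighbouring gene BYSL. On the 5′ side, where the peak of fold 8.02 ran past the span, the neighbouring gene is TAF8. Whether the peaks of this or any other window belong to the named gene or to a neighbour was not tested.

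CCND1, in 11q13.3 (span 69456000 to 69469000 of chromosome 11, plus strand), had 1 peak in its span. It lay at 0.284 to 3.28 kb from the 5′ end (69456284 to 69459284, 3001 bp) with a fold of 10.6, rank 2034, so 96.1% of all peaks were weaker. The rest of the gene, 9.72 kb, held none. The window held 2 more peaks, with folds of 2.36 and 5.32, at 28.7 to 34.2 kb, which is beyond the 3′ end. It was covered over 8.59%, and 17.4% of genome windows of that length were covered at least as much. CCND2, in 12p13.32 (span 4383000 to 4415000 of chromosome 12, plus strand), likewise had its strongest peak at the 5′ end, mostly before it, from -5.06 to 0.412 kb (4377939 to 4383412, 5474 bp) with a fold of 9.53, rank 3370. A weak peak of fold 2.35 followed at 4.81 to 6.07 kb, and the remaining 25.9 kb of the gene had no peak. A further peak, of fold 5.01, lay past the 3′ end at 47.0 to 50.5 kb, on the side of the neighbouring gene TIGAR. The window was covered over 14.2%, and 10.9% of genome windows of that length were covered at least as much. The strongest folds at CCND1 and CCND2 differed little, and with 1 library their order has no error to be judged by.

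**Figure D2:**
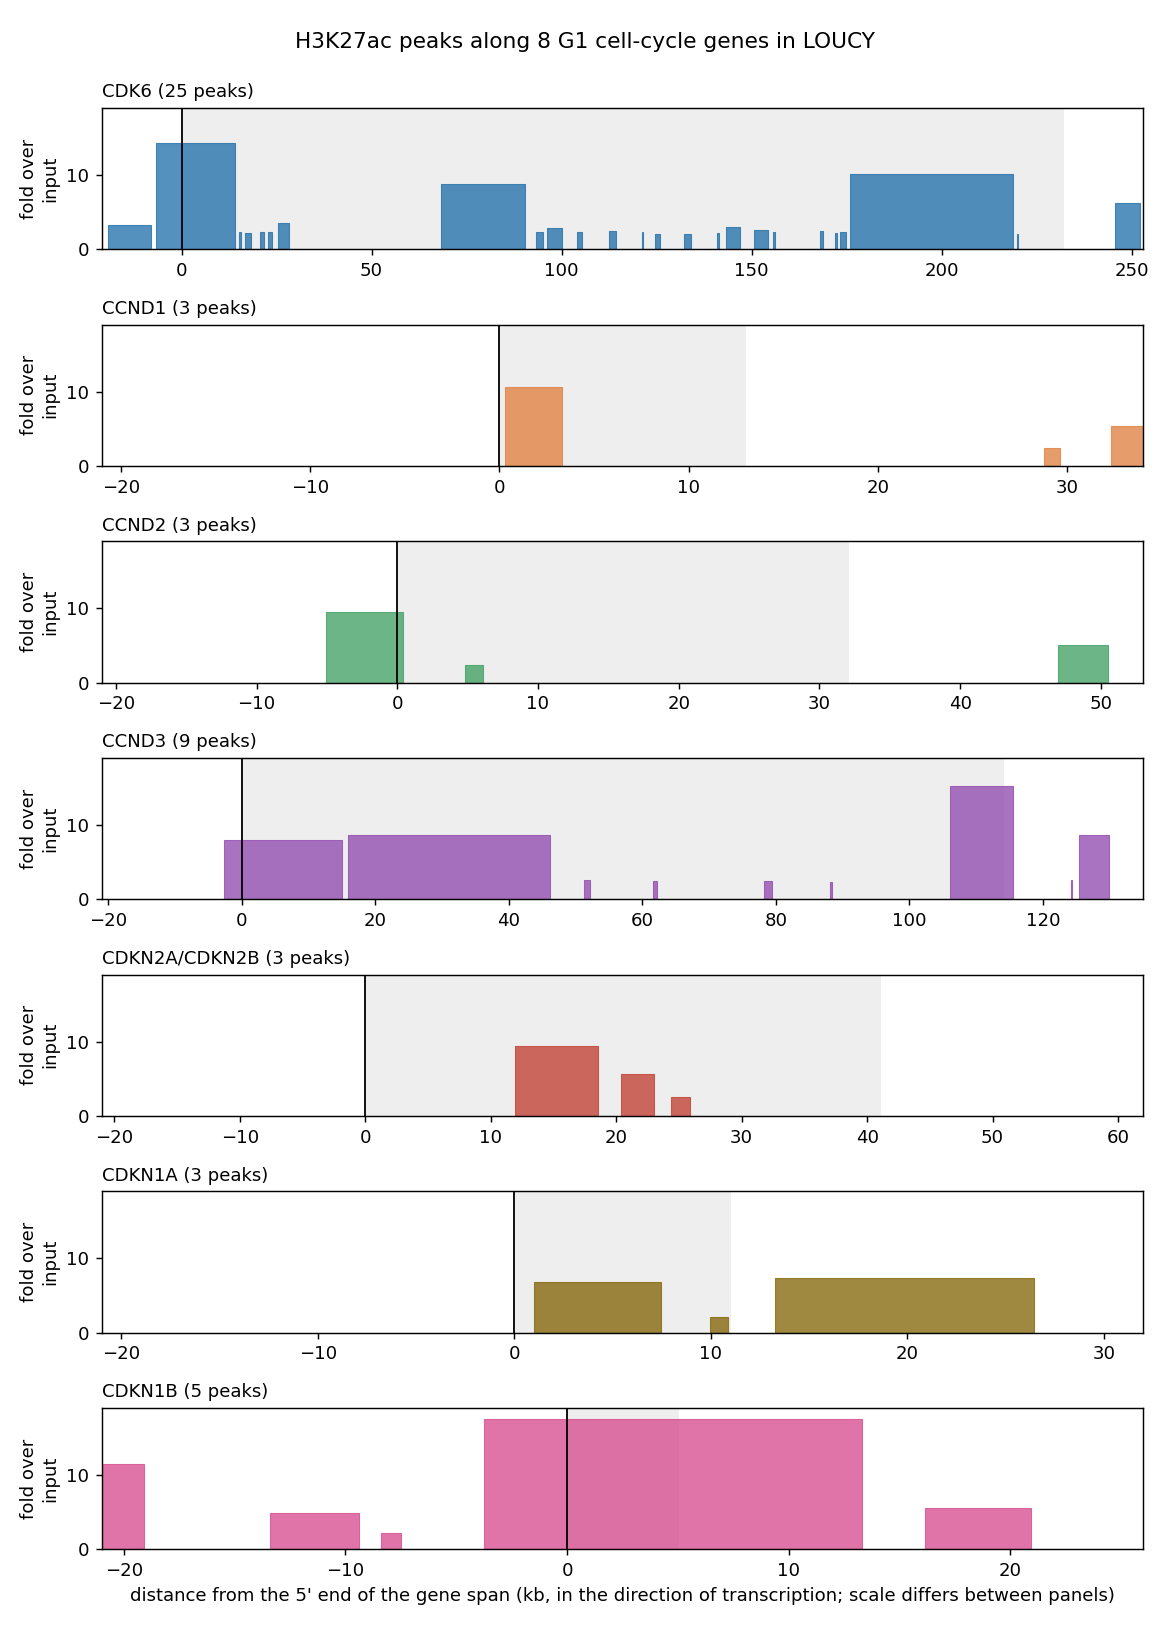
H3K27ac peaks in the 7 gene windows. The horizontal axis is the distance from the 5′ end of the gene span (black line) in kb, in the direction of transcription and at a different scale in each panel. The vertical axis is the authors' fold over input, each block is 1 peak and grey marks the span. CDK6 shows 3 broad blocks, CCND1 and CCND2 a single strong block at the 5′ end, and CDKN2A with CDKN2B no block within 11.9 kb of the end, which is the start of CDKN2B.

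Among the inhibitors, CDKN1B carried the strongest mark of the 8 genes by fold. In 12p13.1 (span 12870000 to 12875000 of chromosome 12, plus strand), a peak 17058 bp wide ran from -3.76 to 13.3 kb (12866242 to 12883299) and covered the whole of the gene. Its fold was 17.6, rank 42 in the genome, so that 99.9% were weaker. The 4 other peaks of the window had folds of 2.15 to 11.5. The strongest of these, at 12848065 to 12850921, lay -21.9 to -19.1 kb from the 5′ end, at the edge of the window and on the side of the neighbouring gene GPR19. On the other side lies APOLD1. Whether these peaks belong to CDKN1B or to its neighbours was not tested. The window was covered over 61.6%, and 0.766% of genome windows of that length were covered at least as much.

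CDKN1A, the p53 target that encodes p21, had weaker but wide peaks. In 6p21.2 (span 36644000 to 36655000 of chromosome 6, plus strand), a peak of fold 6.79 ran from 1.001 to 7.48 kb (36645001 to 36651483, 6483 bp), and a weak one of fold 2.15 followed. The strongest peak lay past the 3′ end, at 13.2 to 26.4 kb (36657244 to 36670443, 13200 bp), with a fold of 7.36, rank 8165. By fold it was the lowest of the 7 strongest peaks, and 84.4% of all peaks were weaker. By -log10 p (41.3, against 40.6 for the strongest peak of CDKN2A with CDKN2B) and by fold times width (96.9% of all peaks lower) it was not the lowest of the 7. The neighbouring gene on that side is RAB44. The window was covered over 40.4%, and 2.27% of genome windows of that length were covered at least as much.

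The CDKN2A and CDKN2B window in 9p21.3 (span 21968000 to 22009000 of chromosome 9, both genes on the minus strand) held 3 peaks, all inside the span and all between 11.9 and 25.9 kb from its upper end, where CDKN2B starts. The nearest peak to the start of CDKN2B was 11.9 kb away. That peak (21990415 to 21997061, 6647 bp) reached to 18.6 kb and had a fold of 9.44, rank 3492, so that 93.3% of all peaks were weaker. It was followed by peaks of fold 5.70 (20.4 to 23.0 kb) and 2.56 (24.4 to 25.9 kb). The lowest 15.1 kb of the span held none. In GRCh38 the outer start site of CDKN2A lies 14.0 kb from that of CDKN2B, and the inner one 34.4 kb. Read side by side, with the same limit as for CCND3, the first distance falls within the strongest peak, and the second falls in the stretch without a peak. A peak list does not tell a region without the mark from one with too few tags or with lost DNA, and the copy number of this locus was not tested. The window was covered over 13.4%, and 11.6% of genome windows of that length were covered at least as much.

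**Figure D3:**
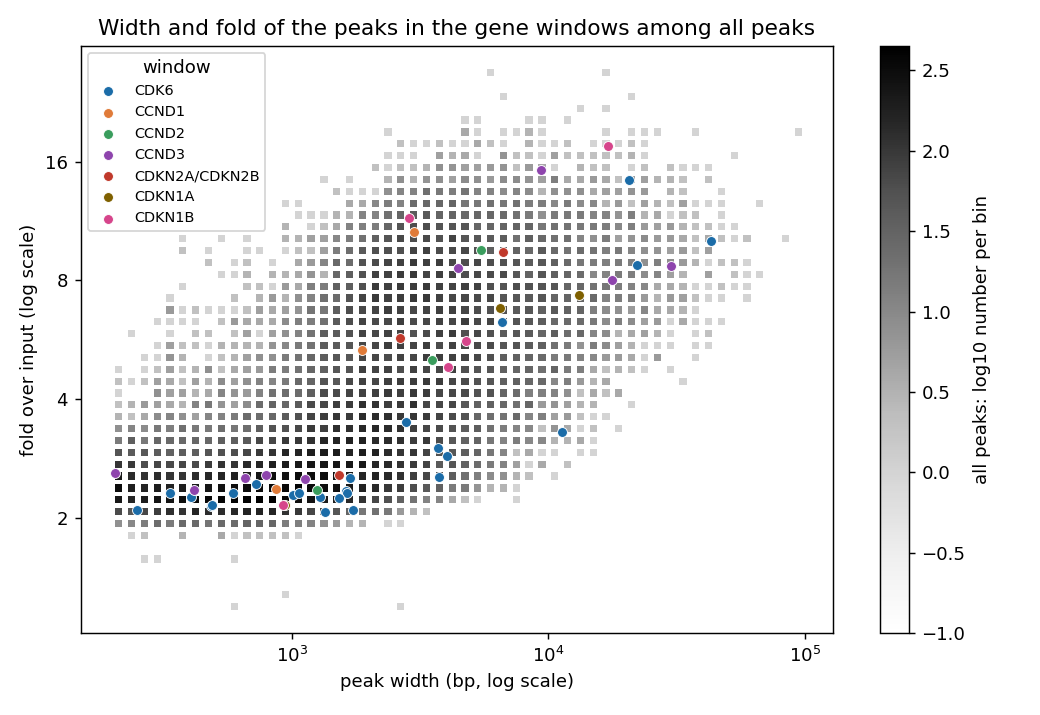
Width (horizontal axis, bp, log scale) and fold over input (vertical axis, log scale) of the 51 peaks in the gene windows, coloured by window, over all 52203 peaks (grey, darker where a bin holds more). The CDKN1B peak of fold 17.6, the CCND3 peak of 15.3 and the CDK6 peak of 14.3 stand near the top, and most CDK6 peaks lie among the weak and narrow ones.

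The strongest peak lay at the 5′ end of the span in 4 of the 7 windows (CDK6, CCND1, CCND2 and CDKN1B). In the other 3 it lay in the gene or past its 3′ end. For CCND3 and for CDKN2A with CDKN2B, it lay at distances where GRCh38 has another start site, as given above. So this count does not tell peaks at a start from peaks away from one. A peak within 1 kb of the 5′ end of the span was found for 5 of the 7 genes, against 8.14% of adjoining 2 kb windows of the genome. CCND3 was the fifth. Those genome windows were not placed at gene starts, and the share at the starts of other genes was not worked out. CDKN1A missed by 1 bp, with its nearest peak 1001 bp away, which is less than the rounding of the spans can decide, and counted at 2 kb. The promoter table gives a CDKN1A start site in GRCh38 only. Whether it lies at the end of the hg19 span or inside it, under that peak, was not worked out. CDKN2B did not count at 5 kb either. CDKN2A has no end of its own in the shared span and was not counted.

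Fold is a ratio to the input, so the input level implied by the fold and p-value of each peak was worked out, in pileup units of the peak caller. It was 5.19 at the strongest CDKN1B peak, 6.78 at that of CCND3 and 9.27 at that of CDK6. The order by -log10 p was the reverse of that by fold, with 118 at CDK6, against 100.4 at CCND3 and 100.2 at CDKN1B. Which of these 3 peaks came first thus depended on the measure, and CCND3 and CDKN1B hardly differed by -log10 p. These are not separate checks. The input level was derived from the fold and the p-value, and at a given fold the -log10 p rises with it. The -log10 p is therefore not a measure of the amount of mark alone. The 3 peaks of the CDKN2A and CDKN2B window had levels of 5.36 to 5.52, and the median was 7.13 over the 51 peaks, against 6.34 over all peaks. The lowest level over all peaks, 4.11, was also that of the CDKN1A and CDKN1B peaks of fold 2.15. Whether this lowest value is a local input or a floor used by the caller was not tested. What part the input had in the folds was not tested.

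When peaks within 10 kb of each other were joined, and the joined regions were ranked by fold times width summed over their peaks, 4 of the 7 windows had a large region in the span, large meaning above the point where the rank curve reaches a slope of 1. Of all 27963 joined regions, 1413 or 5.05% were large. This is a share of regions and not of gene spans, and a long span can meet several regions. The share of other spans of these lengths that meet a large region was not worked out. CDK6 had 3, at ranks 192 (92245816 to 92298028), 296 (92437797 to 92486508) and 566 (92309970 to 92397747). CCND3 had 2, at ranks 230 (41954829 to 42019717, 64.9 kb) and 917. The 5 peaks of the CDKN1B window were joined into 1 region of 42.9 kb (12848065 to 12890935) at rank 263. The CDKN1A region ranked 1298 with a value of 143 fold kb, close to the lowest large value of 133, and was not large when peaks were joined within 20 kb or limited to a -log10 q of at least 10. The regions of CDKN2A with CDKN2B (rank 2625), CCND2 (rank 4156) and CCND1 (rank 7322) were not large.

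**Figure D4:**
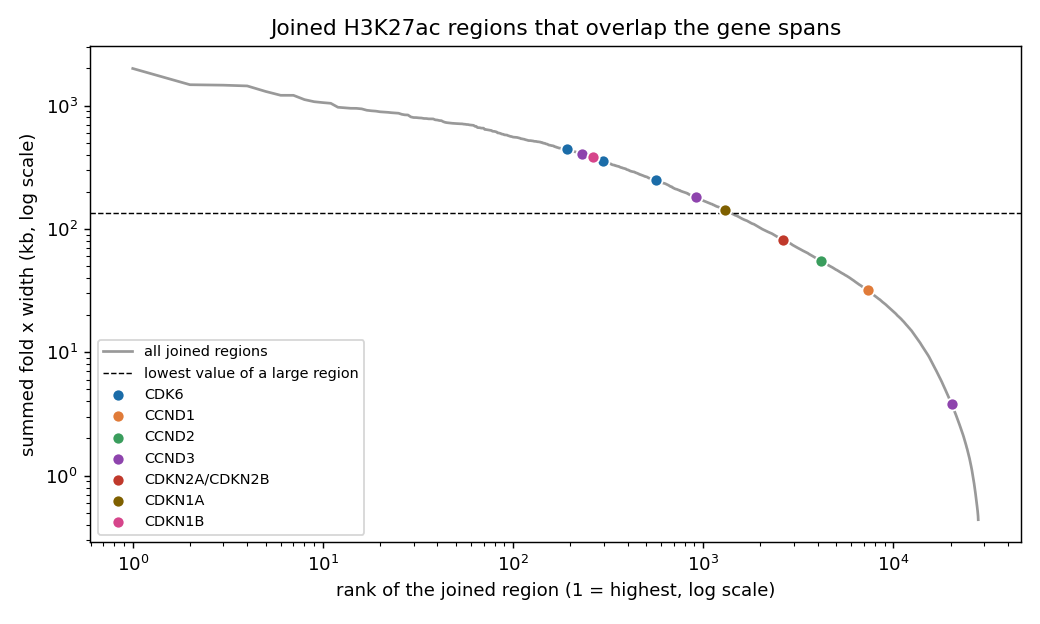
Joined regions that overlap the 7 gene spans (coloured points) on the rank curve of all joined regions (grey line). The horizontal axis is the rank and the vertical axis the summed fold times width in kb, both on log scales, and the dashed line is the lowest value of a large region (133). The regions of CDK6, CDKN1B and the higher CCND3 regions lie above it, the CDKN1A region (143) just above, and those of CDKN2A with CDKN2B, CCND2 and CCND1 below.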

How the data were processed

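Per the labels' protocols, chromatin of LOUCY cells was cross-linked, sonicated and precipitated with an H3K27ac antibody, and libraries were sequenced single-end. Per the submitters' processing notes, Bowtie2, MACS2 and build hg19 were used. For Bowtie2, no version is stated there. Per the file headers, the authors called broad peaks with MACS2 2.1.0.20140616 on 1 library pair and kept 1 tag per position, which dropped 13.2% of ChIP and 3.07% of input tags and limits the height of strong peaks.

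The deposited fold enrichment is the authors' ratio of ChIP signal to the input level used by the caller. For each peak the authors also deposited a -log10 q-value and a -log10 p-value from the caller, and a width in bp. Pileup values were negative in each of the 52203 rows and were left out.

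The members and lists were chosen with earlier results of these data known. The genes named are the 8 members. Peaks given by position include the strongest and widest of each window and those among the first 1% by fold or width. Others were chosen after their values were seen. Spans and windows are in hg19. Strands came from the promoter table, and for CCND1 and CCND2 from textbook knowledge. The 17 other pathway genes listed for study (such as CDK4, RB1 and E2F1) were not analysed here, since 0 of them had an hg19 position in the gene set at hand (GenomicFeatures 1.54.1). RefSeq GRCh38.p14 gave promoters and the order of neighbouring protein-coding genes only. Bands and chromosome lengths came from circlize 0.4.16, and genome windows include assembly gaps. The implied input is the level at which the fold, with 1 added to pileup and input, has the given Poisson p. It was checked on simulated levels. It is approximate for broad peaks. Calculations used Python 3.11.15 with scipy 1.17.1, pandas 2.3.3, numpy 2.4.6 and matplotlib 3.10.9.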

Additional observations from a re-analysis of the deposited data

How the results depend on the processing

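The number of peaks in the windows was 20 with a -log10 q of at least 10 and also 20 with a fold of at least 4, against 51, since weak peaks were removed. Under both, each of the 7 windows kept at least 2 peaks and the covered share was 30.6%, against 37.5%. It was 43.2% without the flanks and 27.9% with flanks of 50 kb. For single genes, leaving out the flanks moved the covered share by over 1.5 times in 5 of 7 windows, to 23.1% at CCND1, 5.21% at CCND2, 26.4% at CDKN2A with CDKN2B, 67.5% at CDKN1A and 100% at CDKN1B. Flanks of 50 kb moved it as much in 3, to 24.2% at CDKN2A with CDKN2B, 18.6% at CDKN1A and 28.2% at CDKN1B. The median percentile of the strongest peaks, 96.1% by fold, was 92.4% by -log10 p and 96.9% by fold times width. Each is the highest of 3 to 25 peaks in its window, set against single peaks, which by itself raises the percentile. No baseline for such a highest peak was worked out, here or for the percentages of weaker peaks given above. The median of the strongest folds was 10.6 with and without flanks. Only the value of CDKN1A changed, to 6.79 in the span alone, against 7.36 in the window. Genes with a peak at the 5′ end numbered 6 within 2 kb and within 5 kb, against 5 within 1 kb. Windows with a large region numbered 3 when joined within 20 kb or with a -log10 q of 10 or more, and 4 when joined within 5 kb or ranked by width, against 4. No paired analysis was possible because each group held a single library.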

Other observations

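Beyond the windows, between 20 and 50 kb from the gene spans, the inhibitor loci differed. The CDKN2A and CDKN2B locus had 8 further peaks there, of which 6 lay above the start of CDKN2B, from 20.4 kb outwards. The strongest of these (22047960 to 22054271 of chromosome 9, 6312 bp) had a fold of 8.65, close to the 9.44 of the strongest peak in the window, and a second wide one (22033544 to 22039949, 6406 bp) had 5.22. The start of CDKN2B thus lay in a stretch without a peak between marked chromatin on both sides. Which genes the peaks of this locus belong to was not tested, and genes without a protein product were not looked at. CDKN1A and CDKN1B had 0 further peaks at these distances.

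CCND3 had 1 further peak, of fold 8.49 (41861871 to 41865737 of chromosome 6), 37.3 kb past its 3′ end. The 3 further peaks of CCND1 and the 3 of CDK6, all upstream, had folds of at most 2.96 and 2.67. Those of CCND2 reached 3.96, in a peak 7267 bp wide that began 26.9 kb upstream (4348818 to 4356084 of chromosome 12).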
